A study of Homo sapiens with 6 samples.

Results

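The genes described here are the TAM receptors AXL, TYRO3 and MERTK with their ligands GAS6 and PROS1, the receptor MET with its ligand HGF, and the collagen receptors DDR1 and DDR2. They were chosen by symbol, 9 of the 23228 genes listed for each library, and 8 of them had reads and were tested. The 6 RNA libraries came from MDA-MB-231, a mesenchymal-like, triple-negative line from human breast cancer, all grown in the same serum-containing medium. In 3 libraries the cells carried a lentiviral scrambled short hairpin RNA (shRNA), and in 3 a lentiviral shRNA against SCUBE3, a gene for a secreted protein with EGF-like domains. Both kinds of cells were selected with puromycin. The labels do not say whether cells were pooled or cloned, how many hairpin sequences were used, or whether replicate libraries are separate cultures. All p-values therefore rest on the spread between libraries alone, and that spread may be technical.

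TAM receptors are tyrosine kinases that are activated by the vitamin K-dependent proteins GAS6 and protein S (encoded by PROS1), which bridge them to phosphatidylserine on dying cells and membranes. GAS6 binds all 3 receptors, and protein S acts on TYRO3 and MERTK. MET is the receptor of hepatocyte growth factor, the HGF product, which stromal cells secrete as an inactive precursor and which drives cell scattering and invasion. DDR1 and DDR2 are receptor tyrosine kinases that bind triple-helical collagen, DDR1 mostly in epithelial cells and DDR2 mostly in mesenchymal cells. AXL is known as a receptor that is high in mesenchymal-like breast cancer lines.

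The libraries labelled knockdown did not have less SCUBE3 RNA. SCUBE3 had 96, 91 and 80 reads in scramble and 99, 107 and 101 in the other libraries. Its log2 fold change was 0.03 ± 0.14 (SE) with an adjusted p of 0.871 (Benjamini-Hochberg, from edgeR's quasi-likelihood test), and without scramble replicate 3 the estimate was -0.0503. The labels say that SCUBE3 protein was examined by western blot, and no such values were analysed here. The groups are therefore called scramble and labelled knockdown, and every direction given is that of the labels. Between 21348509 and 25520901 reads per library fell in genes. The share of all counts that were given to no gene was 49.0% to 49.7% in scramble and 41.0% to 41.2% in the other group, and its part in the results was not tested. Of the 8 genes listed as high in MDA-MB-231, 7 were higher in the libraries labelled knockdown and 1, VIM, was lower, with VIM at 4371 against 2395 CPM (read counts scaled to library size with edgeR's cpm and TMM factors) and CD44 at 578 against 1046 CPM. ANXA1 stood at 536 against 659 CPM and CAV1 at 360 against 773 CPM. S100A4, named after its values were seen, stood at 2.58 CPM in scramble against 563 CPM. MTAP, which this line lacks, had 0 reads in every library, and CDKN2A, named after its values were seen, had 1 read in all. Of the 9 genes listed as low or lost in this line 6 were tested, and 2 were higher and 3 lower. FOXA1 fell from 21.8 to 0.0532 CPM and ERBB3 from 12.2 to 5.86 CPM, while GATA3 rose from 5.91 to 15.5 CPM. PGR fell from 25, 18 and 23 reads in scramble to 0 in every library labelled knockdown. ESR1, not tested, had 3, 1 and 4 reads in scramble and 0 in the others. PGR and ESR1 were named after their values were seen. CDH1, the E-cadherin gene, rose from 3 reads in all scramble libraries to 152 reads (named after its values were seen). EPCAM was at 14.6 and 15.4 CPM and was not called. Markers of other cell types moved with the groups: the 7 blood genes summed to 284 to 291 CPM in scramble but 159 to 170 CPM under the knockdown label, nearly all of it CD68, which fell from 286 to 156 CPM. The monocyte gene CD14 rose from 0.234 to 6.20 CPM and LYZ from 0.199 to 0.807 CPM, while the pan-leukocyte gene PTPRC was at 0.133 and 0.145 CPM and HBB had 0 reads. The 5 fibroblast genes summed to 1.31 to 1.81 and 11.2 to 12.2 CPM, mostly PDGFRB, with DCN at 0 reads in every library and LUM at 0 reads in scramble against 17, 16 and 14. The 5 endothelial genes summed to 4.86 to 6.61 and 9.995 to 11.9 CPM, with KDR at 4.32 and 7.99 CPM and PECAM1 at 0.976 and 2.59 CPM. The part of these markers in the results was not tested. In bulk RNA of this kind, fewer cells with a transcript and less transcript per cell cannot be told apart.

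In the libraries labelled knockdown DDR1, GAS6, MET and TYRO3 were higher, MERTK, PROS1 and AXL were lower, DDR2 did not pass the test and HGF was not read at all. The changes ran from a 5.32-fold rise of DDR1 to a 2.82-fold fall of MERTK. Thus 4 of the 8 tested genes were called higher and 3 lower (edgeR quasi-likelihood test, adjusted p under 0.05 over all 13606 genes tested). Over all tested genes 85.9% were called, 43.4% higher and 42.5% lower, so the share of called members is near the background. The libraries of the groups did not overlap for the 7 called members, nor for 85.8% of all tested genes. The median size of the log2 fold change was 0.66 over the 8 tested members and 0.64 over all tested genes. Only DDR1, GAS6, MERTK and PROS1 among the members passed a test against a 1.5-fold change (edgeR glmTreat), which 45.9% of all tested genes passed.

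**Figure D1:**
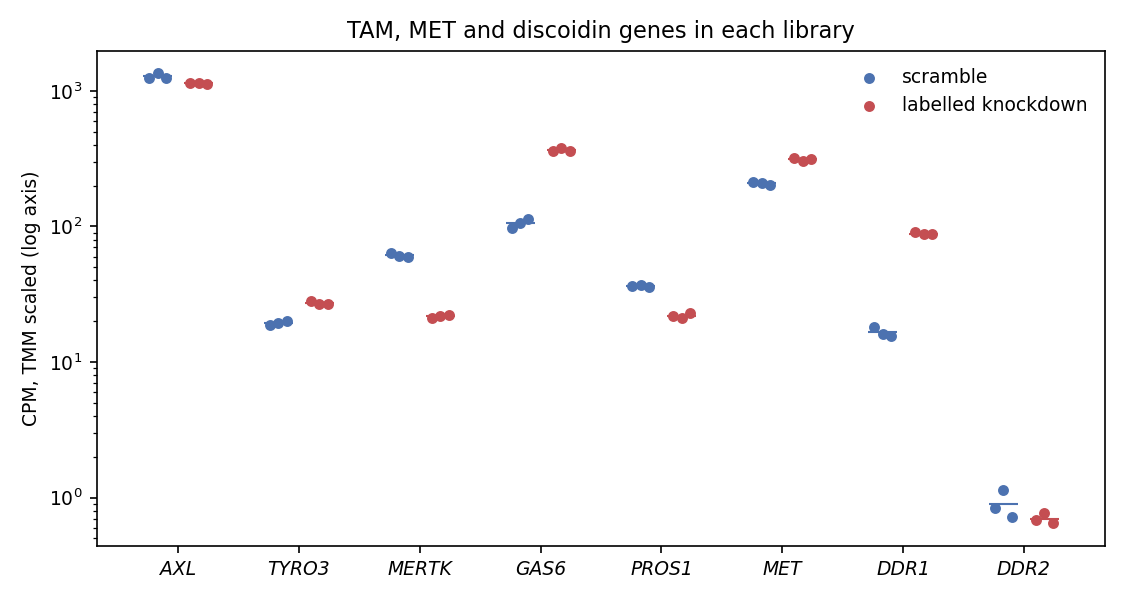
Level in CPM (vertical log axis, TMM scaled) of the 8 members with reads, with a point per library, short lines at group means, scramble in blue and labelled knockdown in red. The groups are apart for every gene but DDR2. HGF, with 0 reads, cannot be drawn on a log axis.

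**Figure D2:**
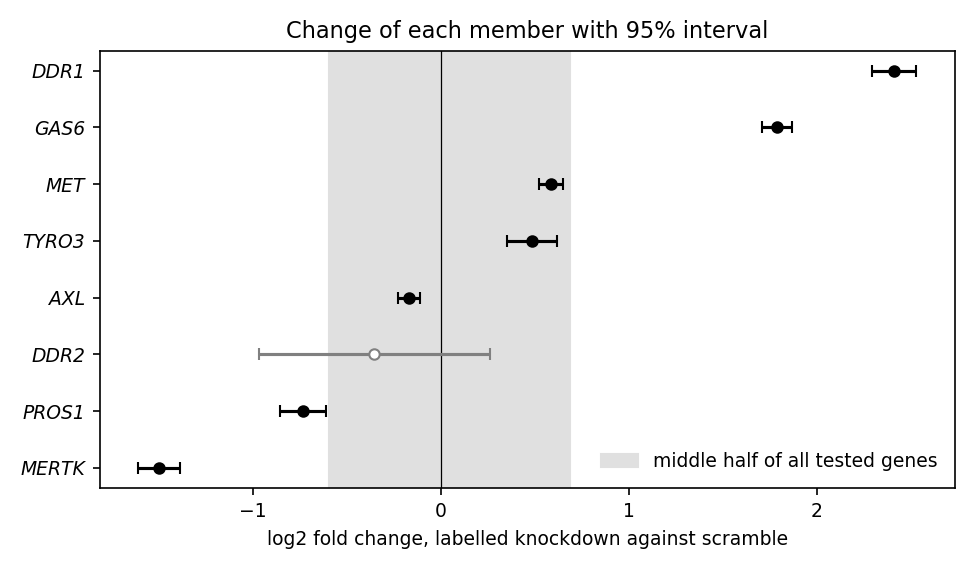
Log2 fold change of each tested member (horizontal axis, labelled knockdown against scramble) with its 95% interval, filled where the edgeR test passed and open for DDR2. The grey band is the interquartile range of all tested genes, from -0.60 to 0.69, and DDR1, GAS6, MERTK and PROS1 have estimates outside it.

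AXL was the most abundant member and changed little. Its level was 1241, 1349 and 1255 CPM in the scramble libraries and 1141, 1147 and 1131 CPM under the knockdown label. Scramble replicate 2 was the highest library, and the groups did not overlap. AXL RNA fell by 11.1% (95% interval -14.6% to -7.41%), a log2 fold change of -0.17 ± 0.03 (SE; edgeR adjusted p = 1.31e-06), and 85.2% of all tested genes had a larger change. With library totals in place of TMM scaling the estimate was -0.12, still called.

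MERTK, the TAM receptor best known from the clearance of dying cells by macrophages and retinal epithelium, moved furthest in its family. It was read at 63.8, 60.4 and 59.6 CPM in scramble and 21.3, 21.7 and 22.1 CPM under the knockdown label, every library of the first group far above every library of the second. Its log2 fold change was -1.498 ± 0.055 (SE; edgeR adjusted p = 2.09e-25), and 17.6% of tested genes changed more. TYRO3, the family member best known from the nervous system, went the other way. It had 18.7, 19.6 and 20.2 CPM in scramble against 27.97, 26.98 and 26.8 CPM, a log2 fold change of 0.48 ± 0.07 (SE; edgeR adjusted p = 1.30e-08), without overlap between groups.

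Per kilobase of transcript, AXL made up nearly all of the TAM receptor RNA in both groups. Its share of the summed AXL, TYRO3 and MERTK level was 93.4%, 94.2% and 93.8% in scramble and 96.5%, 96.5% and 96.4% under the knockdown label. The MERTK share went from 5.38% ± 0.355 (SD, n = 3) to 2.20% ± 0.0537 and the TYRO3 share from 0.824% ± 0.0432 to 1.33% ± 0.0300. An exact two-sided permutation test gave p = 0.1 for each of these differences, which is as low as 3 against 3 libraries can go. Such shares do not depend on how the libraries are scaled. The summed TAM receptor level ran from 280 to 303 RPKM (CPM per kilobase of transcript) in scramble and from 248 to 251 RPKM in the other group.

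The TAM ligands moved in opposite directions. GAS6 had 97.9, 106 and 114 CPM in scramble and 360, 376 and 361 CPM in the libraries labelled knockdown, with a wide gap between the groups. That is a 3.45-fold rise (95% interval 3.27 to 3.65), a log2 fold change of 1.79 ± 0.04 (SE; edgeR adjusted p = 1.78e-29), and 13.5% of tested genes changed more. PROS1, which encodes the anticoagulant protein S, had 36.4, 37.0 and 35.8 CPM in scramble against 21.7, 21.3 and 22.8 CPM, again without overlap. PROS1 had a log2 fold change of -0.73 ± 0.06 (SE; edgeR adjusted p = 3.22e-14). Per kilobase, GAS6 RNA stood at 0.157 of the AXL level in scramble and at 0.610 of it in the other group. The log2 of that ratio was -2.67 ± 0.121 (SD, n = 3) and -0.71 ± 0.0286, with an exact two-sided permutation p of 0.1, the smallest possible.

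Some positions of these transcripts cannot be counted cleanly with reads of the length used here. Of all windows of 50 bases in the PROS1 transcript, 10.1% also occur in PROS2P, a pseudogene copy, and 5.43% of those of TYRO3 occur in another gene (2.3% in the pseudogene TYRO3P). Reads from such windows align to several places. Of the GAS6 windows 8.07% lie in sequence shared with the antisense gene GAS6-AS1, whose reads cannot be told apart from those of GAS6 unless the counting used strand, which the sources used here do not state. MERTK, DDR1, DDR2 and HGF had 0 such windows, MET 0.0607% and AXL 1.15%. DDR1 lies in the major histocompatibility region, of which hg19 also holds alternate haplotype sequences. Whether those were part of the alignment, in which case DDR1 reads would align to several places, is not given in the sources used here. The DDR1 level, its rank among the members and its share of the discoidin receptors carry that limit.

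The sequences just upstream of the main starts of AXL, MERTK, GAS6 and MET are printed because these genes span the responses seen, little changed, lower, higher and moderately higher. They are the 250 bases before each RefSeq start on GRCh38.p14, from 5′ to 3′ on the gene's strand, and the counts were made on hg19. Capitals mark the GC box bound by Sp1 family factors, GGGCGG or its reverse complement CCGCCC. AXL lies on the plus strand at chr19:41218973-41219222, MERTK on the plus strand at chr2:111898357-111898606, GAS6 on the minus strand at chr13:113864077-113864326 and MET on the plus strand at chr7:116671946-116672195.
AXL: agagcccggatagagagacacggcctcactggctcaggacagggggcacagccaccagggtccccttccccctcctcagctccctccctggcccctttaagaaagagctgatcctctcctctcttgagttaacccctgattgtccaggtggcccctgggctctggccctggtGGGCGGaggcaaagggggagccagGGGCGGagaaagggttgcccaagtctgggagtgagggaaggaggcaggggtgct
MERTK: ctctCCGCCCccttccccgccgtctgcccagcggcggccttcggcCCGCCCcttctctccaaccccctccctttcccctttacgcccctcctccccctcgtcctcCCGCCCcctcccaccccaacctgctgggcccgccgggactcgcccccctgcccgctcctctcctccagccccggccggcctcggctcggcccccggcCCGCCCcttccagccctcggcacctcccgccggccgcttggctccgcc
GAS6: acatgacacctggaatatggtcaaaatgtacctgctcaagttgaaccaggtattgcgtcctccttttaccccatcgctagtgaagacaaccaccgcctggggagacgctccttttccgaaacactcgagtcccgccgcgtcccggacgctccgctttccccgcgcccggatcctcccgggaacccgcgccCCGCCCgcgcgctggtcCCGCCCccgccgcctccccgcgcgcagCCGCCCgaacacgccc
MET: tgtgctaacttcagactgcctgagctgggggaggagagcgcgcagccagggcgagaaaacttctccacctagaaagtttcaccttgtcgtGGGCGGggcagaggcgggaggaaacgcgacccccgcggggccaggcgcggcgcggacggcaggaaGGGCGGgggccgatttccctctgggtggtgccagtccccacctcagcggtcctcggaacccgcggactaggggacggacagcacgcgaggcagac
The box occurred 2 times before AXL, 4 times before MERTK, 3 times before GAS6 and 2 times before MET, and in 42.6% of the 35116 windows of this length in the table. The AP-1 motif TGANTCA, found in 6.57% of windows, and the TEAD motif GGAATG (or CATTCC), found in 11.9%, had no match in these 4 windows on either strand. A second RefSeq start of AXL had 1 TEAD match and 0 GC boxes. The other members differed in these motifs. PROS1 had 2 GC boxes, and the first of the TYRO3 starts had 3 and 1 AP-1 match. HGF (1 TEAD match) and all 3 DDR2 starts had 0 GC boxes. Of the 8 DDR1 starts, 4 had at least 1 box, another had a TEAD match and another an AP-1 match. A match is a run of letters and not a binding site.

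MET rose and its ligand was not read. MET had 212, 209 and 204 CPM in scramble and 318, 303 and 317 CPM in the libraries labelled knockdown, and the groups did not overlap. The rise was 50.1% (95% interval 43.4% to 57.0%), a log2 fold change of 0.59 ± 0.03 (SE; edgeR adjusted p = 1.26e-19), and 53.4% of tested genes changed more. HGF had 0 reads in all 6 libraries. With 3 reads over a group as the limit that such a count allows, HGF could have stood at 0.0448 CPM in scramble or 0.0397 CPM under the knockdown label, for counting error alone. MST1R, which encodes RON, the closest relative of MET, rose from 3.90 ± 0.0925 to 22.5 ± 0.799 CPM (SD, n = 3). Its log2 fold change was 2.52 ± 0.10 (SE; edgeR adjusted p = 4.66e-25). Its ligand gene MST1 had 5, 2 and 3 reads in scramble and 12, 8 and 13 in the other group and was below the filter for testing. Without that filter, without any one of the scramble libraries or without labelled knockdown replicate 2, MST1 was tested and called higher as well, so that 2 of the 2 genes were higher.

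The discoidin receptors were read almost only as DDR1. DDR1 had 18.3, 15.98 and 15.6 CPM in scramble and 90.3, 87.8 and 87.8 CPM under the knockdown label, the largest rise among the members. Its log2 fold change was 2.41 ± 0.06 (SE; edgeR adjusted p = 8.77e-32), and 8.95% of tested genes changed more. DDR2 had 20, 24 and 16 reads in scramble and 17, 20 and 16 in the other group, so it was at trace level throughout and the groups overlapped. The DDR2 log2 fold change was -0.35 ± 0.30 (SE; edgeR adjusted p = 0.273), and its 95% interval, from -48.9% to 19.8%, leaves both a fall and a rise possible at this depth. Without scramble replicate 2 the estimate was -0.16 and without scramble replicate 3 it was -0.50, neither called. Per kilobase, the DDR1 share of the 2 receptors was 98.2%, 97.3% and 98.2% in scramble and 99.7%, 99.7% and 99.7% in the other group (exact two-sided permutation p = 0.1, n = 3 per group, the smallest possible).

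Per kilobase of transcript, AXL led in both groups, with 271 ± 12.5 RPKM (SD, n = 3) in scramble and 241 ± 1.69 RPKM in the libraries labelled knockdown. GAS6 came next at 42.5 ± 3.25 and 147 ± 3.62 RPKM, and MET had 31.4 ± 0.620 and 47.1 ± 1.29 RPKM. MERTK held rank 4 in scramble at 15.5 ± 0.559 RPKM and rank 6 in the other group at 5.49 ± 0.108 RPKM. DDR1 moved from rank 6, at 4.22 ± 0.365 RPKM, to rank 4, at 22.5 ± 0.369 RPKM. PROS1 held rank 5 in both, at 10.2 ± 0.167 and 6.12 ± 0.223 RPKM, and TYRO3 rank 7, at 2.37 ± 0.0925 and 3.32 ± 0.0778 RPKM. DDR2 lay far below, at 0.0888 ± 0.0215 and 0.0689 ± 0.00633 RPKM. Neighbours in this order did not overlap between libraries of either group, but PROS1 and MERTK in the libraries labelled knockdown differed by 1.12 times, and 1 transcript stands for each gene's length.

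**Figure D3:**
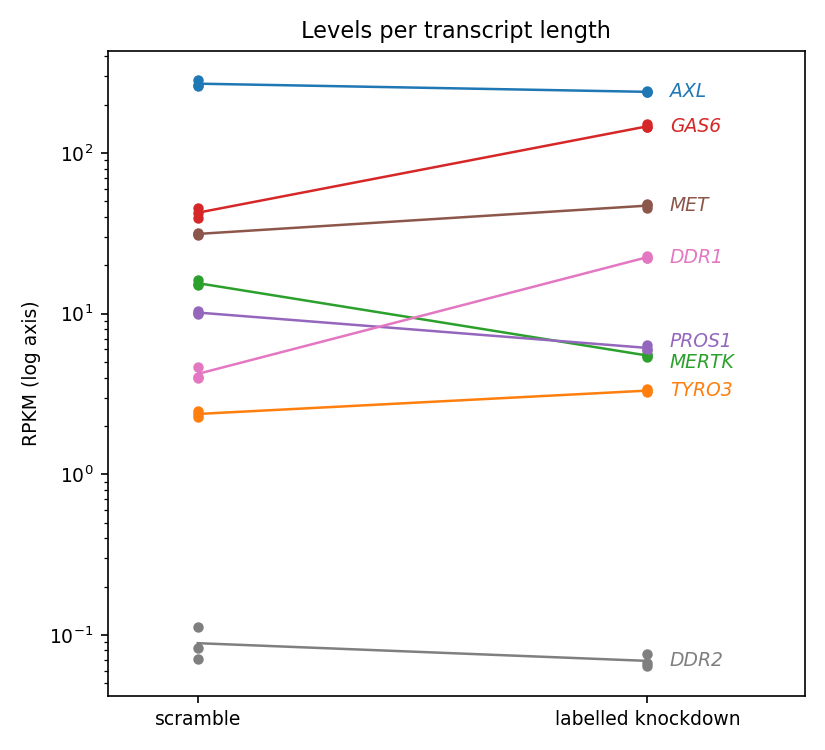
Level per kilobase of transcript (RPKM, vertical log axis) of the 8 members with reads, with a point per library and lines joining group means. GAS6 moves up towards AXL, DDR1 moves up past PROS1 and MERTK, and MERTK moves down to just under PROS1.

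Genes that act on the TAM ligands and receptors were more often higher. In a list of 8 other ligands, vitamin K enzymes and sheddases, 7 were tested. Of these 5 rose (71.4%) and 1 fell (14.3%), beside 43.4% and 42.5% of all tested genes. The list's median log2 fold change was 0.62, beside 0.01 over all tested genes. LGALS3, which encodes galectin-3, a reported MERTK ligand, went from 49.3 ± 0.792 to 133 ± 3.85 CPM (SD, n = 3). ADAM10, a protease that sheds TAM receptors, went from 94.4 ± 2.88 to 208 ± 9.97 CPM. GGCX, the carboxylase that makes GAS6 and protein S active, rose by a log2 fold change of 0.51 ± 0.04 (SE; edgeR adjusted p = 7.25e-14). TUB, which encodes tubby, another reported MERTK ligand, had 2 scramble reads and 520 under the knockdown label, 230 times as many after scaling (95% counting interval 63.4 to 1906).

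Factors described at the AXL promoter were more often lower, beside the small change of AXL itself. Of 18 tested, 10 fell (55.6%) and 5 rose (27.8%), beside 42.5% and 43.4% of all tested genes. The list's median log2 fold change was -0.32. The AP-1 subunit FOSL1 fell from 622 ± 18.4 to 297 ± 14.9 CPM (SD, n = 3) and SP1 from 236 ± 9.46 to 117 ± 2.91 CPM. The AP-1 subunit FOSL2 rose from 76.6 ± 3.73 to 246 ± 7.02 CPM and the hypoxia factor gene EPAS1 from 28.7 ± 1.73 to 90.7 ± 3.71 CPM.

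Around MET, genes for some of the proteases that can process the HGF precursor rose together with inhibitors of such proteases. Of 13 genes in that list 7 were tested, and the rest had at most 7 reads in any library. Of the tested genes 5 rose (71.4%, beside 43.4% of all tested genes) and 0 fell. The median log2 fold change was 1.46. In that list 2 members missed an adjusted p of 0.05 in edgeR, F12 and SERPINA5. The plasminogen activator PLAT rose from 32.5 ± 1.12 to 685 ± 19.1 CPM (SD, n = 3) and PLAU, urokinase, from 112 ± 4.89 to 615 ± 14.6 CPM. The Kunitz inhibitors SPINT2 (log2 fold change 0.89 ± 0.04, SE) and SPINT1 (1.46 ± 0.12) were higher too. Other proteases of the list were read at low levels. ST14 was higher, at 0.770 and 2.67 CPM, and HGFAC, not tested, had 2 reads over all scramble libraries and 20 over the others. ST14 and HGFAC were named after their values were seen.

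Co-receptors of MET moved both ways, 6 of 10 up (60%) and 4 down (40%), with a median log2 fold change of 0.54. Over all tested genes 43.4% were higher and 42.5% lower. The semaphorin receptor PLXNB2 (1.85 ± 0.04, SE), the neuropilin NRP1 (1.55 ± 0.03), the laminin receptor subunit ITGB4 (1.71 ± 0.04) and the hyaluronan receptor CD44 (0.86 ± 0.03) were higher. Among 12 tested genes that limit MET, 9 were higher (75%) and 2 lower (16.7%), with a median log2 fold change of 0.26. The count of lower genes was 1 without labelled knockdown replicate 1 or replicate 3 and 0 with library totals. Under the test against a 1.5-fold change 4 of these genes were higher and 0 lower. Among the higher genes was LRIG1, a membrane protein that promotes receptor turnover, which rose from 17.1 ± 0.531 to 95.6 ± 0.828 CPM (SD, n = 3). The receptor phosphatases PTPRJ (log2 fold change 1.65 ± 0.04, SE) and PTPRF (1.33 ± 0.03) and the ubiquitin ligase CBLB (1.16 ± 0.10) were higher as well. Adaptors and effectors shared by MET and AXL split evenly, 7 of 16 up and 7 down (median 0.03). RAPGEF1 (1.30 ± 0.04) and SHC1 (0.89 ± 0.04) were higher, and the phosphatase gene PTPN11 (-0.82 ± 0.03) and the PI3-kinase subunit gene PIK3R1 (-1.49 ± 0.06) were lower.

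Collagens that the discoidin receptors bind numbered 14 among the tested genes. Of these 10 were higher (71.4%) and 3 lower (21.4%), beside 43.4% and 42.5% of all tested genes. Their median log2 fold change was 1.17, also with COL8A2, which had 0 reads in scramble, at its lower bound. COL5A1 rose from 29.6 ± 0.889 to 255 ± 2.02 CPM (SD, n = 3), COL6A2 from 12.7 ± 1.41 to 88.3 ± 3.65 CPM and COL6A1 from 84.2 ± 2.76 to 184 ± 8.05 CPM. COL6A3 went from 0.466 ± 0.193 to 42.3 ± 2.51 CPM. COL1A1, a chain of the fibrillar collagen best known as a ligand of both receptors and named after its values were seen, went from 3.99 ± 0.542 to 9.24 ± 0.810 CPM. The lower collagens, named after their values were seen, were COL5A2 (log2 fold change -2.81 ± 0.18, SE), COL4A4 (-1.72 ± 0.17) and COL8A1 (-0.20 ± 0.04). The summed fibroblast genes rose as most of these collagens did, from 1.31 to 1.81 CPM up to 11.2 to 12.2 CPM, with DCN at 0 reads. Their part in the collagen levels was not tested. Partners and effectors of the discoidin receptors split evenly, 8 of 16 up and 8 down (median 0.06). STAT5A (3.07 ± 0.10, SE), the DDR1-binding protein gene WWC1 (1.34 ± 0.04) and the myosin gene MYH9 (0.86 ± 0.03) were higher, and its relative MYH10 was lower (-1.30 ± 0.03).

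Over all 10 lists of partner genes, 105 of 124 listed genes were tested, 58 were higher (55.2%) and 37 lower (35.2%), beside 43.4% and 42.5% of all tested genes. The lists were chosen with earlier results of these data known and no set test was run, so the shares only describe these lists.

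**Figure D4:**
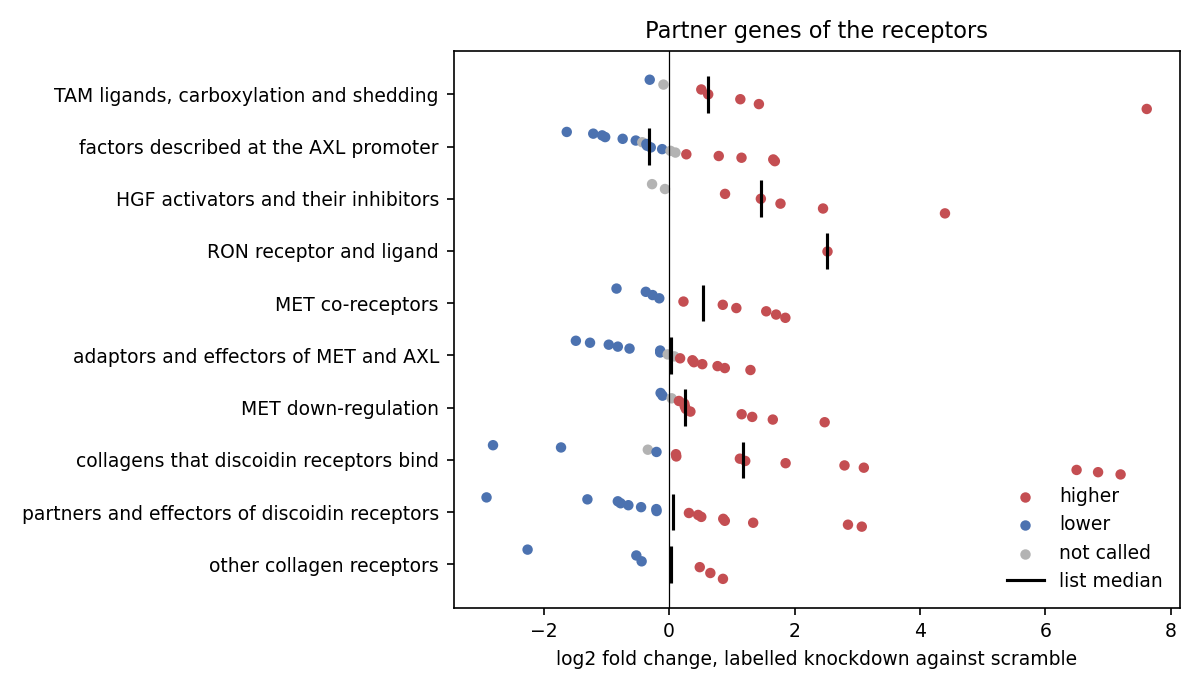
Log2 fold change (horizontal axis, labelled knockdown against scramble) of each tested gene in 10 lists of partner genes, red where higher, blue where lower and grey where not called, with a black bar at the list median. The list of protease and inhibitor genes around HGF and the collagen list have medians of 1.46 and 1.17, and the adaptor list has a median of 0.03; TUB and COL8A2, at the far right, rest on 2 and 0 scramble reads and are drawn at fitted values.

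The tested protein-coding genes on either side of 6 called members, in RefSeq order on GRCh38.p14, were compared as a description of position. Both neighbours of AXL fell, CYP2S1 by 1.31 ± 0.11 and HNRNPUL1 by 1.33 ± 0.03 on the log2 scale (SE; edgeR adjusted p = 4.93e-14 and 2.84e-33), while AXL itself fell by 0.17. Both neighbours of TYRO3 were lower, RPAP1 (-0.58 ± 0.06) and MGA (-1.07 ± 0.04), where TYRO3 was higher. Both neighbours of MET were higher like MET, CAV1 (from 360 to 773 CPM) and CAPZA2 (0.88 ± 0.04). DDR1 lay between IER3 (2.74 ± 0.03) and GTF2H4 (1.11 ± 0.05), both higher. GAS6 stood apart from FAM70B (0.22 ± 0.11, edgeR adjusted p = 0.0618) and RASA3 (-0.26 ± 0.04), and MERTK from ANAPC1 (-0.51 ± 0.06) and TMEM87B (0.42 ± 0.05). The differences between members and neighbours were not tested.

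**Figure D5:**
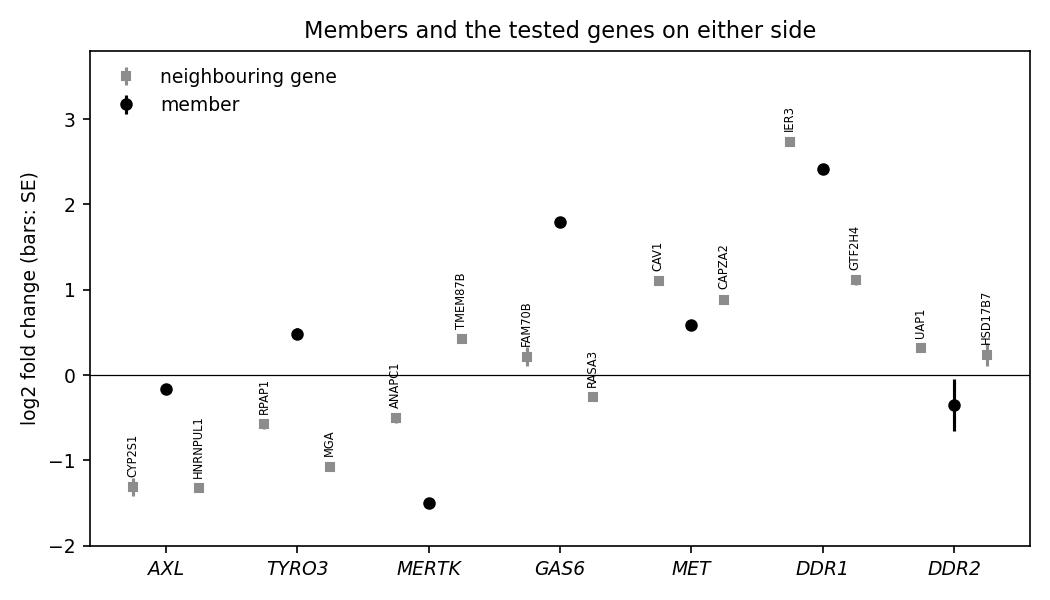
Log2 fold change with its SE (vertical axis, labelled knockdown against scramble) of 7 tested members (black circles) and of the nearest tested protein-coding gene on each side (grey squares, named). AXL, MET and DDR1 moved in the direction of both neighbours and TYRO3 against both. AXL fell far less than its neighbours, to -0.17 beside -1.31 and -1.33.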

How the data were processed

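The submitters' processing notes name bcl2fastq, TopHat2 2.0.8b, HTSeq and the build hg19. Annotation release and strand setting: not given in the sources used here. A stranded mRNA kit and single reads of 50 bases were used, per the labels' protocols. Each library's deposited file lists whole-number counts by gene symbol, which the authors had not normalized. HTSeq's 5 closing lines, which hold reads given to no gene (41.0% to 49.7% of all reads), were left out. Most of these reads aligned to several places. Such reads made up 34.0% to 34.2% of all reads in scramble and 29.3% to 29.6% in the other group.

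Samples were grouped by title. The 13606 genes that pass filterByExpr went into edgeR's quasi-likelihood test, version 4.0.16 under R 4.3.3, with TMM scaling, robust dispersion and a model of group alone. P-values are two-sided and adjusted by Benjamini-Hochberg over these genes, with 0.05 as the threshold. The SE was taken as the log2 fold change over the square root of its F statistic. RPKM used the length of 1 GENCODE transcript per gene (coding, basic, best APPRIS class, then longest). The fit was tested on simulated data. Within groups, chi-square over degrees of freedom was 1.67 to 3.45, above sampling noise, and every library counts as its own replicate. Counting intervals and floors cover counting error only, and the 95% intervals of fold changes come from the edgeR fit.

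The members, the lists and the naming rule (up to 4 genes per list by adjusted p, the 4 most abundant markers per marker list and those at 0) were chosen with earlier results of these data known. Most named genes follow that rule; neighbouring genes follow from position (those of PROS1 are not reported here), and CDKN2A, CDH1, S100A4, COL1A1 and the list members F12 and SERPINA5 were named otherwise. Promoter windows are RefSeq's on GRCh38.p14, and all 9 members matched. Alternatives were other scalings (DESeq2's size factors, upper quartile, library totals), other low-count filters, DESeq2 1.42.0, limma-voom (limma 3.58.1), leaving out single libraries, a replicate block, testing against a 1.5-fold change, a 0.01 threshold, and other transcript lengths.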

Additional observations from a re-analysis of the deposited data

How the results depend on the processing

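Each called member kept its direction under all alternatives, and its call under all but the test against a 1.5-fold change. Under that test (edgeR glmTreat) AXL (-0.17, adjusted p = 1), TYRO3 (0.48, adjusted p = 1) and MET (0.59, adjusted p = 0.460) were not called, so that 2 members were higher in place of 4 and 2 lower in place of 3, and 39 partner genes were higher in place of 58 and 16 lower in place of 37. Over all alternatives the AXL log2 fold change ran from -0.20 to -0.12, that of MERTK from -1.52 to -1.45, that of GAS6 from 1.73 to 1.84, that of DDR1 from 2.36 to 2.48 and that of DDR2, never called, from -0.50 to -0.16. With 1 library left out at a time SCUBE3 ran from -0.0503 (without scramble replicate 3) to 0.0796 (without scramble replicate 2), beside 0.03 with all. Without length, on raw reads, the AXL share rose by 1.82 percentage points in place of 2.67 and the DDR1 share by 4.38 in place of 1.77. Library totals shifted the median of all genes by 0.05 on the log2 scale. DDR2 was under a filter of 1 CPM in 3 libraries and has no value there. With the replicate number as a block 4 members were higher and 3 lower (AXL -0.17, DDR1 2.41), 58 partner genes higher and 38 lower, and no member's call changed. Same-numbered libraries did not deviate together (r from -0.00129 to 0.00893), and the titles do not say whether the numbers mark a pairing or batch. At this depth DDR2, with 16 to 24 reads per library, could not show a change of the size seen for AXL.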

Other observations

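Other collagen receptors moved both ways. Of 9 listed, 6 were tested, 3 higher and 3 lower, with a median log2 fold change of 0.03. The integrin subunit genes ITGB1 and ITGA2, which together form a collagen receptor, rose from 670 ± 26.1 to 1058 ± 26.3 CPM (SD, n = 3) and from 189 ± 7.15 to 343 ± 18.9 CPM. MRC2, an endocytic collagen receptor, was higher (log2 fold change 0.49 ± 0.05, SE; edgeR adjusted p = 1.27e-10), and ITGA1 was lower (-0.52 ± 0.07).

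The tested genes whose levels over the 6 libraries lay closest to those of a member were found by Euclidean distance of centred log2 CPM. For AXL they were CARKD, RAB1B and KCTD1 (distance 0.0374 to 0.0482, median over all genes 0.828). For MET they were GALNT10, CLCN4 and TRAPPC8 (0.0155 to 0.0272, median 1.06), and for DDR1 they were RAB3D, LRIG1 and SEMA3C (0.127 to 0.138, median 3.01). With 2 groups of libraries the distance mainly reflects how far a gene differed between them. SEMA3C is also the nearest tested coding gene below HGF in RefSeq order, and it rose from 26.0 to 137 CPM where HGF had 0 reads.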
